A study of Mus musculus with 10 samples.

Results

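Imprinted growth network genes are a set of 10 genes, Peg3, Igf2, H19, Igf2r, Cdkn1c, Plagl1, Grb10, Mest, Meg3 and Gnas, that take part in the control of body growth. They are imprinted, meaning that some or all of their transcripts come mainly from the copy inherited from one parent. They were picked by name out of the 43629 genes in the count table, through their Ensembl identifiers, and the choice was made with the cachexia contrast of these livers already known. All 10 were among the 14143 genes that passed the filter on low counts. The livers came from male KL mice on an FVB background, a Cre-inducible model of lung cancer that carries floxed Lkb1. Both groups had received adenoviral Cre through the nose as adults, so that tumours arose in the lung. Cre was driven by the CMV promoter, which is not specific to a cell type. The 5 mice in the NCACS group (no cachexia, mice 11 to 15) had weight changes between -14 and -3%, and the 5 in the CACS group (cancer anorexia and cachexia syndrome, mice 16 to 20) between -33 and -29%. No tumour-free livers were analysed here, so every difference is between cachectic and non-cachectic tumour-bearing mice.

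Imprinted genes keep a mark of their parental origin, laid down as DNA methylation in the egg or sperm, and one copy then stays silent, for some genes only in part. Several of them act on the same growth pathway. Igf2 encodes a fetal growth factor, Igf2r encodes a receptor that removes it, Grb10 encodes an adaptor that dampens insulin and IGF1 receptor signalling, and Cdkn1c encodes an inhibitor of cyclin-dependent kinases. Many are strongly expressed in the fetal liver and shut down after birth, as part of the slowing of growth. The libraries did not separate the parental copies, so each value below is the sum over both.

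Peg3 was the member with the widest separation between the groups, and it lies head to head with another imprinted gene, Usp29. The RefSeq starts of the pair, 6730419 for Peg3 on the reverse strand and 6730583 for Usp29 on the forward strand of chromosome 7, are 164 bases apart. The stretch between the annotated ends of both genes is printed because Peg3 had up to 5488 counts in a liver and Usp29 had 0 or 1, with this short stretch lying between them. It covers chr7:6730432-6730577 in GRCm38.p6 (RefSeq), reads 5′ to 3′ on the strand of Peg3, and has its 5 CG dinucleotides, the sites that DNA methylation marks, in capitals.
Peg3 to Usp29: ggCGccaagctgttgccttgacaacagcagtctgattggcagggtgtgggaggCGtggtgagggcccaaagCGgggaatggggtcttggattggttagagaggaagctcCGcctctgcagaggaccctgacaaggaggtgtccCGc
RefSeq windows of 250 bases before to 50 after a start were held for 8 of the 10 members, with none for H19 and Cdkn1c. The letters TGACGTCA, the full palindromic form of the CREB motif, were searched on both strands because Gnas encodes the alpha subunit of the G protein that raises cAMP. They stood in at least 1 window of 2 members, Peg3 and Meg3, and of 2.03% of the 27025 genes with a window, or in 1.79% of all 32851 windows. The Peg3 window holding them also covers the start of Usp29, whose own window holds the same letters. Each site is shown with its flanks and with the motif in capitals, at chr7:6730579-6730608 on the reverse strand and chr12:109540928-109540957 on the forward strand.
Peg3 site: actgactccgtTGACGTCAactccgtgcct
Meg3 site: gcagaatgcgcTGACGTCAaagaccacccc
The motif began 178 bases before the start of Peg3 and 57 bases before that of Meg3. On the Peg3 side it lay past the start of Usp29, within that gene, and outside the stretch printed above. A match of letters is no evidence that a factor binds, and a part of these sites in the differences between the groups was not tested. Neither the YY1 letters GCCATNTT, found in 6.05% of all windows, nor the STAT letters TTCNNNGAA, found in 8.3%, stood in any window of a member. The windows with most CG dinucleotides belonged to Grb10, with 45, Gnas, with 40, and Igf2r, with 34, against a median of 7 over all windows.

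In these adult livers the members fell, by their counts, into a pair of well expressed genes and 8 genes of low level. The place of Gnas among the 8 is uncertain, because reads that also fall in Gm20721 on the opposite strand may have been left uncounted. Its value per kilobase also rests on 11186 annotated exon bases, where its transcript Gnas-202 has 3903. Levels between genes are compared as TMM-normalised counts scaled to a common library size (CPM) per kilobase of annotated exon. In NCACS livers Igf2r was highest, at 5.87 ± 0.518 CPM per kb (SD, n = 5), followed by Peg3 at 2.73 ± 0.563 CPM per kb. Meg3 came next, at 0.818 ± 0.360 CPM per kb, and Mest, Cdkn1c and Grb10 lay between 0.357 and 0.591 CPM per kb. H19, Igf2, Gnas and Plagl1 were between 0.0792 and 0.163 CPM per kb. In that order, only the steps from Igf2r to Peg3, from Peg3 to Meg3 and from Grb10 to H19 separated every liver, and the ranges of all other neighbours overlapped.

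In CACS livers the order of the leading pair was exchanged. Peg3 stood at 8.95 ± 1.63 CPM per kb (SD, n = 5) and Igf2r at 4.30 ± 0.508 CPM per kb, with no overlap between them. Cdkn1c followed, at 0.787 ± 0.199 CPM per kb, above every value of Grb10, which averaged 0.422 CPM per kb. Meg3 and Mest were next, at 0.388 and 0.359 CPM per kb, and Mest was above every value of H19. The lowest 4 were H19, Gnas, Plagl1 and Igf2, between 0.0786 and 0.115 CPM per kb, with overlapping neighbours. By mean CPM per kb over both groups, Peg3 was at percentile 67.8 and Igf2r at percentile 65.1 of the tested genes. The other members were between percentiles 2.43 and 23.4, with the same doubt about Gnas.

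**Figure D1:**
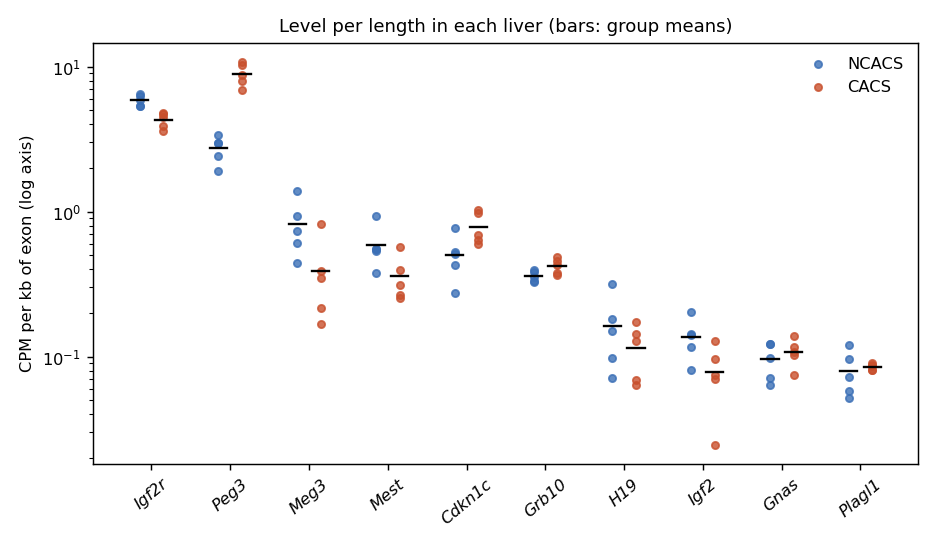
Level of each member in each liver, as TMM-normalised CPM per kilobase of exon on a log axis, with NCACS and CACS livers in separate colours. Peg3 and Igf2r stand above the other 8 members in both groups, with Igf2r first in NCACS livers (5.87 CPM per kb) and Peg3 first in CACS livers (8.95 CPM per kb). The level of Gnas is uncertain, because some of its reads may have been left uncounted.

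Peg3 (ENSMUSG00000002265, chr7:6703892-6730431 in GRCm38, reverse strand) encodes a large zinc finger protein expressed from the paternal copy. The NCACS livers, mice 11 to 15, had 39.4, 44.7, 32.1, 25.6 and 39.9 CPM, and the CACS livers, mice 16 to 20, had 107, 144, 138, 116 and 91.5 CPM. The lowest CACS liver was above the highest NCACS liver by more than the whole NCACS range. The means were 36.3 ± 7.51 and 119 ± 21.7 CPM (SD, n = 5 each), a 3.28-fold difference and a log2 fold change of 1.71 (standard error 0.168, 95% interval 1.35 to 2.08). Because the contrast was known when the gene was chosen, this is a description, and in the fit of all genes it was the 28th largest of the 267 rises past an adjusted p of 0.05. Leaving out single mice gave values of 1.61 to 1.80, and the gene passed in all 10 fits. In RNA from a whole liver, which holds several cell types, a change in the number of cells of a type and a change in the RNA per cell cannot be told apart.

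The neighbours of Peg3 in its imprinted cluster were close to undetected in these livers. Usp29, the paternally expressed gene on the other side of the shared stretch, had 0 or 1 counts per liver. Zim1, a zinc finger gene downstream of Peg3, had between 0 and 5 counts. Both were below the filter, so no difference between the groups could be tested for them.

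**Figure D2:**
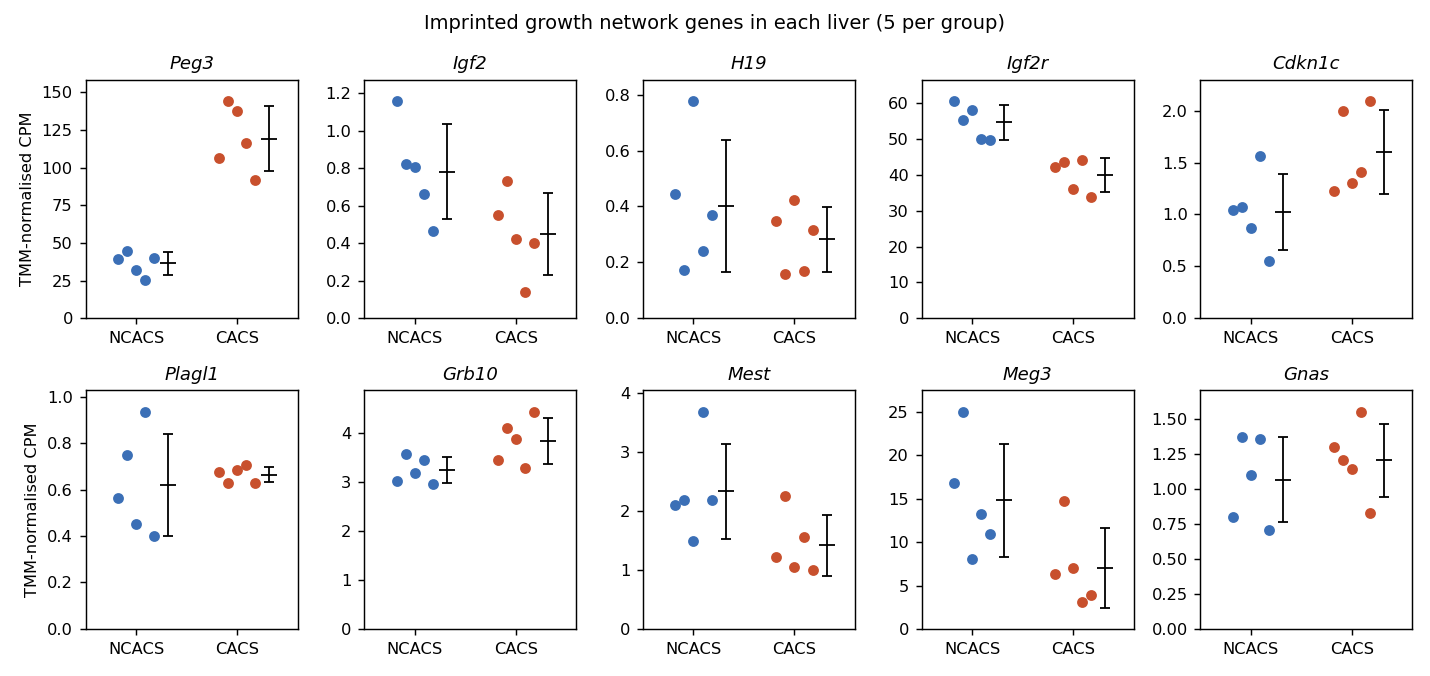
TMM-normalised CPM of each of the 10 members in each liver, with 1 panel per gene, linear axes that start at 0, 5 NCACS and 5 CACS livers, and bars for the mean and SD. The groups are apart for Peg3, at 25.6 to 44.7 against 91.5 to 144 CPM, and for Igf2r, at 49.7 to 60.5 against 33.8 to 44.3 CPM, and overlap for the other 8 genes.

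Igf2r (ENSMUSG00000023830, chr17:12682406-12769664, reverse strand) encodes the receptor that carries IGF2 and mannose 6-phosphate-tagged enzymes to the lysosome, and in mice it is expressed from the maternal copy. NCACS livers had 60.5, 55.2, 58.1, 49.9 and 49.7 CPM, and CACS livers 42.1, 43.6, 36.2, 44.3 and 33.8 CPM. Every CACS liver was below every NCACS liver, though the closest pair was only a few CPM apart. The means were 54.7 ± 4.82 and 39.98 ± 4.73 CPM (SD, n = 5 each), with a log2 fold change of -0.45 (standard error 0.101, 95% interval -0.67 to -0.23). It passed the threshold over all genes, but with single mice left out it did so in only 2 of 10 fits, those without NCACS mouse 15 or CACS mouse 17, where the log2 fold change was -0.48 in each. With raw library totals in place of TMM it did not pass, at -0.43.

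The ratio of Peg3 to Igf2r, taken per kilobase within each liver, cancels differences in depth between libraries. It was 0.455, 0.567, 0.387, 0.358 and 0.561 in NCACS livers and 1.77, 2.31, 2.66, 1.84 and 1.89 in CACS livers. Igf2r was thus the higher of the pair in all 5 NCACS livers and Peg3 in all 5 CACS livers, with mean ratios of 0.465 ± 0.0965 and 2.09 ± 0.381 (SD). Each gene alone already separated the groups, in opposite directions, so the separation of the ratio follows from that and is no further evidence.

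Of the 10 members, 1 rose (Peg3) and 1 fell (Igf2r), where 3.80% of all tested genes passed in either direction, 1.89% upward and 1.92% downward. The same 2 had no overlap between the groups, as had 7.07% of all tested genes (3.95% with CACS livers above and 3.13% with them below), and 5 members had an unadjusted p under 0.05, as had 21.6% of all tested genes. Of the members, 5 had a positive and 5 a negative log2 fold change, with a median of -0.18 against -0.01 over all tested genes. Since the contrast was known when the members were chosen, nothing is read from these counts. The 4 paternally expressed members did not share a sign, with Peg3 and Plagl1 positive and Igf2 and Mest negative, nor did the 5 maternally expressed ones, with Cdkn1c and Grb10 positive and H19, Igf2r and Meg3 negative. Gnas was placed in neither set.

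**Figure D3:**
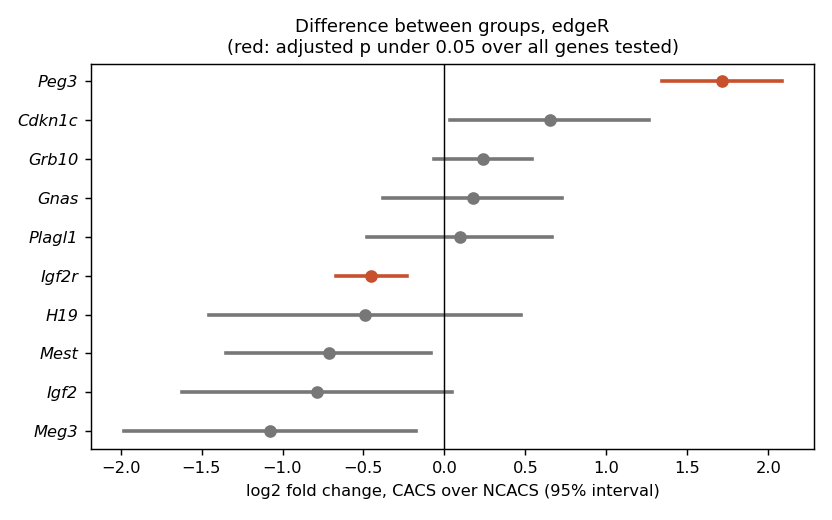
Log2 fold change of each member, CACS over NCACS, from the edgeR fit of all tested genes, with bars for the 95% interval. The interval of Peg3 runs from 1.35 to 2.08 and that of Igf2r from -0.67 to -0.23, and those of Igf2, H19, Plagl1, Grb10 and Gnas include 0.

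Meg3 (ENSMUSG00000021268, chr12:109541001-109571726, forward strand) is a maternally expressed long noncoding RNA whose cluster also gives rise to many small RNAs. It varied more between livers of a group than most genes of its level, with a within-group SD of 0.753 on the log2 scale, at percentile 96.6 of the 500 tested genes closest in level. NCACS livers had 16.8, 25.0, 8.05, 13.2 and 10.96 CPM, and CACS livers 6.30, 14.7, 7.05, 3.04 and 3.92 CPM. Of the CACS livers, 4 were below every NCACS liver, and CACS mouse 17 was within the NCACS range. The means were 14.8 ± 6.52 and 7.01 ± 4.63 CPM (SD, n = 5 each), with a log2 fold change of -1.08 (standard error 0.413, 95% interval -1.98 to -0.18) that did not pass over all genes. It passed only without CACS mouse 17, at -1.54, and was -0.81 without NCACS mouse 12.

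The other noncoding RNAs of the Meg3 cluster are Rian and Mirg, which lie downstream on the same strand and are also expressed from the maternal copy. Rian (chr12:109603940-109661716) averaged 8.21 ± 2.78 CPM in the NCACS and 2.99 ± 2.24 CPM in the CACS group, a log2 fold change of -1.46 ± 0.434 (SE), with edgeR's adjusted p = 0.0827. It passed the threshold with DESeq2, with limma-voom and without CACS mouse 17. Mirg differed by -0.95 on the log2 scale (adjusted p = 0.115, edgeR). After the group means were removed, Meg3 and Rian went together across the 10 livers (Pearson r = 0.983 on log2 CPM), and Rian was the gene most like Meg3 among all genes that averaged 1 CPM or more. The protein-coding genes of the cluster, which are paternally expressed, were close to undetected, with 0 to 6 counts for Dlk1, 0 to 3 for Rtl1 and 0 to 5 for Dio3.

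Rian also differed in its amount relative to Meg3. For each 100 Meg3 counts there were 54.9, 49.1, 58.2, 57.5 and 66.5 Rian counts in NCACS livers, and 39.7, 45.7, 44.0, 37.0 and 37.2 in CACS livers. The groups did not overlap, with means of 57.2 ± 6.30 and 40.7 ± 3.96 (SD, n = 5 each), and this ratio was chosen after the values were seen. For Mirg the same ratio overlapped, at 6.71 ± 3.41 and 7.71 ± 3.93.

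**Figure D4:**
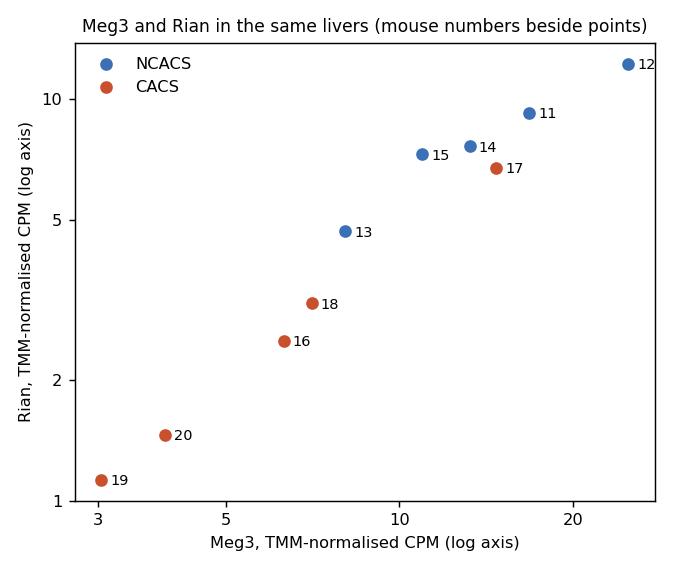
Meg3 against Rian in each liver, both as TMM-normalised CPM on log axes, with the mouse number beside each point. NCACS mouse 12 is highest for both genes and CACS mouse 19 lowest, and CACS mouse 17 is within the NCACS range of both. For each 100 Meg3 counts, CACS livers had 37.0 to 45.7 Rian counts and NCACS livers 49.1 to 66.5.

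Cdkn1c and Grb10, both maternally expressed, had positive log2 fold changes that did not pass. Cdkn1c (ENSMUSG00000037664, chr7:143458339-143461050) had 1.04, 1.07, 0.873, 1.57 and 0.556 CPM in NCACS livers and 1.22, 1.99, 1.31, 1.41 and 2.09 CPM in CACS livers, so that only NCACS mouse 14 lay within the CACS range. The log2 fold change was 0.65 (standard error 0.281, 95% interval 0.04 to 1.26). Grb10 (ENSMUSG00000020176, chr11:11930508-12038683) averaged 3.25 ± 0.270 CPM in the NCACS and 3.84 ± 0.471 CPM in the CACS group (SD, n = 5 each). Its log2 fold change was 0.24 (standard error 0.139, 95% interval -0.06 to 0.54), and its within-group SD of 0.149 was at percentile 1.8 of the 500 genes of like level. Kcnq1ot1, the noncoding RNA that silences the paternal copy of Cdkn1c, differed by 0.53 on the log2 scale (adjusted p = 0.160, edgeR). Airn, the noncoding RNA that does so for Igf2r, differed by -0.55 (adjusted p = 0.359, edgeR).

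Igf2 and H19, neighbours that share an imprinting control region and enhancers, were both near the limit of detection. Igf2 (ENSMUSG00000048583, chr7:142650766-142666816) had 5 to 39 counts per liver, which gave 1.16, 0.822, 0.808, 0.662 and 0.463 CPM in NCACS livers and 0.550, 0.734, 0.424, 0.141 and 0.401 CPM in CACS livers. Its log2 fold change was -0.79 (standard error 0.381, 95% interval -1.62 to 0.05). The noncoding RNA H19 (ENSMUSG00000000031, chr7:142575529-142578143) had 6 to 24 counts, and a log2 fold change of -0.49 (standard error 0.440, 95% interval -1.45 to 0.47). At this depth neither gene showed a detectable difference. H19 was -0.12 without NCACS mouse 13, the liver with most H19 (0.776 CPM).

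Mest (ENSMUSG00000051855, chr6:30723547-30748465), a paternally expressed gene of the hydrolase fold family, had 2.11, 2.19, 1.49, 3.67 and 2.19 CPM in NCACS livers and 1.22, 2.26, 1.04, 1.55 and 1.002 CPM in CACS livers. The groups overlapped through CACS mice 17 and 19, and the log2 fold change of -0.72 (standard error 0.290, 95% interval -1.35 to -0.08) did not pass over all genes. Copg2, on the opposite strand, overlaps 23.1% of the exon bases of Mest and is more abundant, so part of the Mest counts is uncertain. The log2 fold change of Copg2 was -0.24 (adjusted p = 0.351, edgeR).

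Plagl1 and Gnas had similar means in both groups. Plagl1 (ENSMUSG00000019817, chr10:13060504-13131694), which encodes a paternally expressed zinc finger transcription factor, averaged 0.620 ± 0.220 CPM in the NCACS and 0.665 ± 0.0337 CPM in the CACS group (SD, n = 5 each). Its log2 fold change of 0.10 (95% interval -0.48 to 0.67) became -0.02 without NCACS mouse 15. Gnas (ENSMUSG00000027523, chr2:174284320-174346744) had 1.07 ± 0.306 and 1.21 ± 0.261 CPM, with a log2 fold change of 0.17 (95% interval -0.38 to 0.73). The level of Gnas is uncertain, because Gm20721, annotated on the opposite strand with 0 counts in every liver, covers 96.4% of the coding bases of the transcript Gnas-202, and reads that fall in both genes may have been left uncounted.

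Among mice of the same group, no member had a slope on body weight that passed the threshold. The slope of log2 expression on weight change, fitted with the group in the model, was past an adjusted p of 0.05 for 0 of the 10 members, where 2 of the 14143 genes passed (0.0141%) and 1078 had an unadjusted p under 0.05. For Peg3 it was -0.03 per percent of weight (standard error 0.0266, adjusted p = 0.921, edgeR), and it was 0.003 without NCACS mouse 14. Cdkn1c was the 1 member with an unadjusted p under 0.05, at 0.12 per percent (standard error 0.0337, unadjusted p = 0.00554, adjusted p = 0.369, edgeR), a lower level in mice that had lost more weight. Most of the range in weight was in the NCACS group, so these slopes rest on few livers.

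Pairs of members were compared across livers, with no share over all gene pairs to set beside them. Of the 45 pairs of members, after the group means were removed, 5 had an absolute Pearson r over 0.6 and 23 under 0.3 (n = 10 livers), and Peg3 had values between -0.40 and 0.60 with the other members. The 5 genes most like Peg3 by this measure were Adgrv1 (r = 0.944), Ap4m1 (r = 0.916), St6galnac2 (r = 0.895), Ctnnbl1 (r = 0.874) and Stmn1 (r = 0.872). None of these 5 passed in the comparison of the groups, and only 2 of them stayed among the 50 genes most like Peg3 without NCACS mouse 14. For the other members, r with the 2 most similar genes lay between 0.900 and 0.983. These were Pnldc1 and Pola2 for Igf2, Hspb6 and Copz2 for H19, Abtb1 and Dip2b for Igf2r, Tie1 and Map2k7 for Cdkn1c, Hyls1 and Pogz for Plagl1, Nup155 and Slc25a40 for Grb10, Cdk12 and Cep57l1 for Mest, Rian and Pde3a for Meg3, and Strada and Mepce for Gnas. The points share their library and its depth. Each most similar gene was picked for the highest r over all genes that averaged 1 CPM or more, so high values follow in part from selection. Only the genes most like Peg3 were checked with a mouse left out.

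The other imprinted genes were counted in the same fit. Of a list of 69 genes imprinted in at least some tissues, 65 were in the table, 7 of them with 0 counts in every liver, and 45 were tested. Of these, 0 rose and 4 fell at an adjusted p under 0.05 in edgeR's test (8.89%), where 1.89% of all tested genes rose and 1.92% fell, and 12 had an unadjusted p under 0.05, as had 21.6% of all tested genes. DESeq2 called 7, of which 2 rose, Asb4 and Osbpl5. Asb4 also passed in edgeR's test without NCACS mouse 15. The 4 that fell were Dhcr7, Tfpi2, Snrpn and Pon3, of which Dhcr7 and Tfpi2 are known for imprinting in the placenta. Dhcr7, which catalyses the last step of cholesterol synthesis, fell from 172 ± 67.4 to 53.4 ± 23.3 CPM (log2 fold change -1.69, standard error 0.298, adjusted p = 0.0181, edgeR), and Tfpi2, a protease inhibitor gene, from 44.4 ± 2.29 to 18.8 ± 5.02 CPM (-1.24, standard error 0.166, adjusted p = 0.00641). Both passed in all 10 fits with a mouse left out. Snrpn, an RNA splicing gene (-0.66, adjusted p = 0.0323), passed in 2, those without CACS mouse 16 or 18, and Pon3, a paraoxonase gene (-0.44, adjusted p = 0.0407), in 1, that without CACS mouse 18. The most abundant of the list, the amino acid transporter gene Slc38a4, had 1261 ± 246 and 1203 ± 183 CPM.

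**Figure D5:**
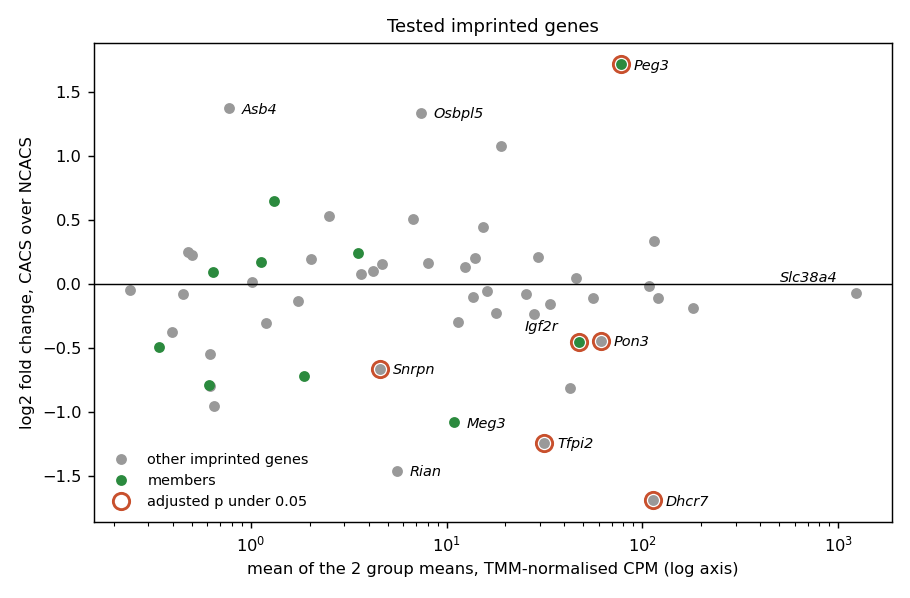
Log2 fold change, CACS over NCACS, against mean TMM-normalised CPM on a log axis for the 10 members and the 45 other imprinted genes tested, with a ring around those at an adjusted p under 0.05. Peg3 is the 1 ringed gene above 0 (1.71), and Dhcr7 (-1.69), Tfpi2 (-1.24), Snrpn, Pon3 and Igf2r are the ringed genes below it.

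Lists of genes that act with the members are given by their counts, beside the 3.80% of all tested genes that passed in either direction. The share with an unadjusted p under 0.05 in edgeR's test was 21.6% of all tested genes. None of 17 tested genes that set or keep imprints passed in edgeR's test, with 3 at an unadjusted p under 0.05. These 3 were Uhrf1, Dnmt3a and Trim28. Uhrf1, with 1 to 94 counts per liver, differed by -2.46 on the log2 scale (adjusted p = 0.0689, edgeR) and Dnmt3a by -0.29. Trim28, a corepressor and the most abundant of the list, differed by 0.30 (adjusted p = 0.103, edgeR). Zfp445 and Ctcf followed in abundance, at 0.29 and 0.17. Of 13 tested partners of IGF and insulin receptor signalling, 1 rose, the growth factor gene Igf1, from 492 ± 60.1 to 746 ± 133 CPM (log2 fold change 0.60, adjusted p = 0.0437, edgeR), though with single mice left out it passed in only 1 of 10 fits, that without CACS mouse 17. Of 21 tested genes around the G protein that Gnas encodes, the coactivator gene Crtc2 rose by 0.36 (adjusted p = 0.0327, edgeR), passing in 2 of 10 such fits, those without NCACS mouse 13 or CACS mouse 18. Prkar1b, a regulatory subunit of protein kinase A with 8 to 20 counts per liver, fell by 1.08 on the log2 scale (adjusted p = 0.0359), passing in 0 of them. None of 13 cell cycle partners of Cdkn1c passed, with 2 at an unadjusted p under 0.05. These 2 were Ccnd1, at -1.36 (adjusted p = 0.0611, edgeR), and Cdk6, at -0.52. Cdk4, Ccnd3 and Cdkn1b, the most abundant, had values of 0.02, -0.20 and 0.001. None of 5 tested fetal liver genes passed, with 0 at an unadjusted p under 0.05, and Afp, Cd24a and Gpc3 had values of -0.52, -0.01 and -0.08.

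The hepatocyte markers, 8 of 8 tested, were high in every liver, with a summed level of 66053 to 115868 CPM in NCACS and 109308 to 132941 CPM in CACS livers, and 1 of them, the transcription factor gene Hnf4a, rose (log2 fold change 0.50, adjusted p = 0.0435, edgeR), though it passed in only 1 of 10 fits with a mouse left out, that without CACS mouse 18. All 7 macrophage markers had negative log2 fold changes, with sums of 170 to 285 and 101 to 204 CPM, and Cd5l fell (-0.90, adjusted p = 0.0374, edgeR), passing in 2 of 10 such fits, those without NCACS mouse 14 or CACS mouse 19. The sums were 200 to 334 and 209 to 320 CPM for 11 stellate cell markers, and 173 to 253 and 215 to 276 CPM for 8 endothelial markers. They were 33.6 to 52.8 and 20.3 to 49.7 CPM for cholangiocyte markers, 10.1 to 22.0 and 6.90 to 14.02 CPM for lymphocyte markers, and 224 to 456 and 283 to 477 CPM for erythroid markers, with 0 markers past the threshold in any of these 5 lists. Of 4 tested lung epithelium markers, Sftpa1 rose (1.27, adjusted p = 0.0323, edgeR), with list sums of at most 10.2 CPM. It passed in 3 of 10 fits with a mouse left out, those without CACS mouse 17, 18 or 19, and not with limma-voom (adjusted p = 0.0584). With the group means removed, r of Peg3 with the summed level of any of these lists was between -0.20 and 0.48 (n = 10 livers). The largest r of any member with any list were 0.86 for Meg3 with cholangiocyte markers and 0.83 for Plagl1 with endothelial markers. They were picked as the largest, and Spp1 alone, at 30.6 ± 6.72 and 25.4 ± 10.1 CPM, made up most of the cholangiocyte sum. The part of these cell types in the differences of the members was not tested.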

How the data were processed

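Livers of male KL mice, 5 NCACS and 5 CACS, were profiled by RNA-seq of stranded poly(A) libraries. The authors aligned single-end reads to GRCm38 with STAR 2.4.1d, counted reads per gene with HTSeq 0.6.1 and deposited raw counts, per the labels. The strand setting is not given in the sources used here. Total counts per liver were 31945328 to 38306888 (NCACS) and 31459179 to 40746178 (CACS). Chi-square divided by its degrees of freedom was at least 46.1 for every pair of livers in a group, so no 2 were taken as the same library. Symbols, coordinates and exon lengths came from GENCODE M21, which lacked 1081 identifiers.

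Counts were filtered with filterByExpr, TMM-normalised and tested with edgeR 4.0.16's quasi-likelihood test in R 4.3.3, with Benjamini-Hochberg adjustment over 14143 genes and a threshold of 0.05. Log2 CPM used a prior count of 2. DESeq2 1.42.0, limma 3.58.1 (voom), other scalings and filters, and leaving out each mouse were the alternatives. The code was tested on simulated counts. Each replicate is a separate mouse by its label. Outside the members, genes named are list genes past the threshold, otherwise the 3 most abundant of a list, cluster neighbours, and the genes most like each member. In the imprint and cell cycle lists, genes with an unadjusted p under 0.05 are also named. Cell type lists with no gene past the threshold are given by their sums, with Spp1 named as the largest part of the cholangiocyte sum. The members and lists were chosen with earlier results of these data known, and the sequence motifs after the values were seen. A further allele of the model is not reported here.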

Additional observations from a re-analysis of the deposited data

How the results depend on the processing

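Peg3 kept its direction and side of the threshold under all 8 other tools, scalings and filters and with each mouse left out (log2 fold change 1.61 to 1.80). With each mouse left out, the log2 fold change of Igf2r was -0.49 to -0.39, that of Meg3 -1.54 to -0.81, of Igf2 -1.03 to -0.56, of H19 -0.69 to -0.12, of Mest -0.94 to -0.49, of Cdkn1c 0.50 to 0.85, of Grb10 0.18 to 0.29, of Gnas 0.06 to 0.28 and of Plagl1 -0.0208 to 0.29, the reversal being without NCACS mouse 15. Igf2r lost its call with raw library totals (-0.43, adjusted p = 0.0588, edgeR). The number of genes past the threshold, 538, was 178 to 519 with a mouse left out, with 79 to 246 higher and 96 to 273 lower in CACS livers. It was lowest without NCACS mouse 11. DESeq2 called 1386, with 672 higher and 714 lower, and 173 were higher without the filter on low counts. Of the other imprinted genes, 7 passed with DESeq2, 2 with no filter, and 2 to 4 with a mouse left out. The slope on weight change passed for 0 to 6 genes with a mouse left out, and reversed for Peg3 without NCACS mouse 14 (0.00305), for Igf2r without NCACS mouse 11 (-0.00131) or 15 (-0.00658) and for Gnas without NCACS mouse 15 (-0.0158), in each case from a value that had not passed. These slopes ranged from -0.0419 to 0.00305 for Peg3, -0.00658 to 0.0213 for Igf2r and -0.0158 to 0.0579 for Gnas. Of the 5 genes most like Peg3, 2 to 5 stayed among the 50 most like it. The causes were not tested. No paired analysis was possible because no replicate number occurs in both groups. Counting error limits Igf2, H19, Plagl1 and Gnas, with at most 55 counts per liver.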
